A study of Homo sapiens with 3 samples.

Results

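Metallothioneins are small, cysteine-rich proteins that bind zinc and copper and are made in larger amounts when free metal rises. The 10 genes described here are 8 metallothioneins (MT1E, MT1F, MT1G, MT1H, MT1HL1, MT1M, MT1X and MT2A), the zinc exporter gene SLC30A1 and MTF1, which encodes the zinc-sensing transcription factor of these genes. They are 10 of 19775 genes that a probe set of the array names alone, and they were read by 18 of 41091 such probe sets, every one whose platform symbol is a member's. The metallothioneins were chosen by measured values, their higher signal on both amino acid-deprived arrays, so their differences from complete medium are a description and not a finding. SLC30A1 and MTF1 were added as further genes of the zinc response.

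RNA came from undifferentiated cultures of khES3, which is a human embryonic stem cell line in established use, after 5 hours in medium without leucine, in medium without lysine or in complete medium. Leucine and lysine are amino acids that human cells cannot make. Each medium had 1 array, so no value below has a replicate, an error between cultures or a p-value. The labels do not give the zinc content or serum of the media.

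In mammalian cells a rise in free zinc makes MTF1 bind short promoter sequences called metal response elements, which switches on the metallothionein genes and the exporter gene SLC30A1. Metallothionein genes also respond to glucocorticoids, heavy metals and oxidants. Metallothioneins hold metal inside the cell, most SLC30 proteins move zinc out of the cytosol, and many SLC39 proteins bring it in.

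Of the 8 metallothionein genes, 7 lie in a cluster on chromosome 16, and MT1HL1, SLC30A1 and MTF1 are on chromosome 1. RefSeq promoter sequence (GRCh38.p14) was held for 5 of the 10 genes. It is shown because the metallothioneins were higher together and MTF1 binds metal response elements. The windows hold the 250 bases before the annotated gene start, 5′ to 3′ on the gene's strand. Capitals mark each match, on either strand, to the metal response element core, written TGCACNC or TGCGCNC.
MT2A, chr16:56608334-56608583, plus strand: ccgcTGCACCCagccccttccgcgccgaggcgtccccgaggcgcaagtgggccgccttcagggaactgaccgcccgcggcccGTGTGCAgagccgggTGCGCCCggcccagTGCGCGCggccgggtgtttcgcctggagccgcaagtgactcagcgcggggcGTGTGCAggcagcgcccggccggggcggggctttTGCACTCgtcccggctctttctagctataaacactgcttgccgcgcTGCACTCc
MT1X, chr16:56682220-56682469, plus strand: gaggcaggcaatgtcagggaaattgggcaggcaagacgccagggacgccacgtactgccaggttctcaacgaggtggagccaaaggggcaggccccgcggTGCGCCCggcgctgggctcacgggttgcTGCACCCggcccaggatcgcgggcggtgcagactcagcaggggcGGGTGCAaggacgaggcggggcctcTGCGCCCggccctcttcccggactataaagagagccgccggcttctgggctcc
MT1H, chr16:56669564-56669813, plus strand: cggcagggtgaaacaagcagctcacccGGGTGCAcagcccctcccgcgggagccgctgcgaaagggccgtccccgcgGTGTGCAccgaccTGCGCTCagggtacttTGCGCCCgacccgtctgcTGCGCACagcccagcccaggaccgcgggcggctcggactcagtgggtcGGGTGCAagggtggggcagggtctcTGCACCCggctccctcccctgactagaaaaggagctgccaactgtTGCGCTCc
SLC30A1, chr1:211579162-211579411, minus strand: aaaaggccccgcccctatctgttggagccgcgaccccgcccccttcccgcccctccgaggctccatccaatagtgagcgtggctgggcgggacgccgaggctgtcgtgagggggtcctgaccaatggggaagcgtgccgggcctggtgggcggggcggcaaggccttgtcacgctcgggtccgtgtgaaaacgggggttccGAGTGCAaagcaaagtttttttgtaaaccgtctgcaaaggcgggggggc
MTF1, chr1:37859593-37859842, minus strand: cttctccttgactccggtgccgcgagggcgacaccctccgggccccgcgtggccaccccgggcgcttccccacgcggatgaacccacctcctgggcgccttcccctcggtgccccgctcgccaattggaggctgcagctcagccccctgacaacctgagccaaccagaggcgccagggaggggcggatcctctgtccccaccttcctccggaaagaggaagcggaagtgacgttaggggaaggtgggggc

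The promoter windows of MT1H, MT2A and MT1X, the only metallothionein windows held, were dense in these letters. MT1H held 8 matches, MT2A 7 and MT1X 4, with no overlap between matches, whereas SLC30A1 held 1 and MTF1 held none. Over all 35116 RefSeq promoter windows of the same length, 24.8% held at least 1 match, 0.370% at least 4 and 0.0313% at least 7. The windows with at least 7 matches numbered 11, and MT1H and MT2A were among them. All 5 windows were rich in G and C, from 66.4% in SLC30A1 to 73.2% in MT2A. Among the 16148 windows with at least 60% G and C, 37.7% held at least 1 match and 0.737% at least 4. Matches stood in like places: MT1H and MT1X each had one covering 53 to 47 bases before the start, and MT2A had one 54 to 48 bases before it. MT1H and MT1X also shared a match on the other strand 78 to 72 bases before the start, and MT1H and MT2A shared one 8 to 2 bases before it. The only match of SLC30A1 covered 49 to 43 bases before its start, on the other strand. The core shared by C/EBP and ATF factors, TGATGNAA on either strand, was absent from all 5 windows and present in 3.14% of all windows. A match is a run of letters and does not show that a factor binds there.

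**Figure D1:**
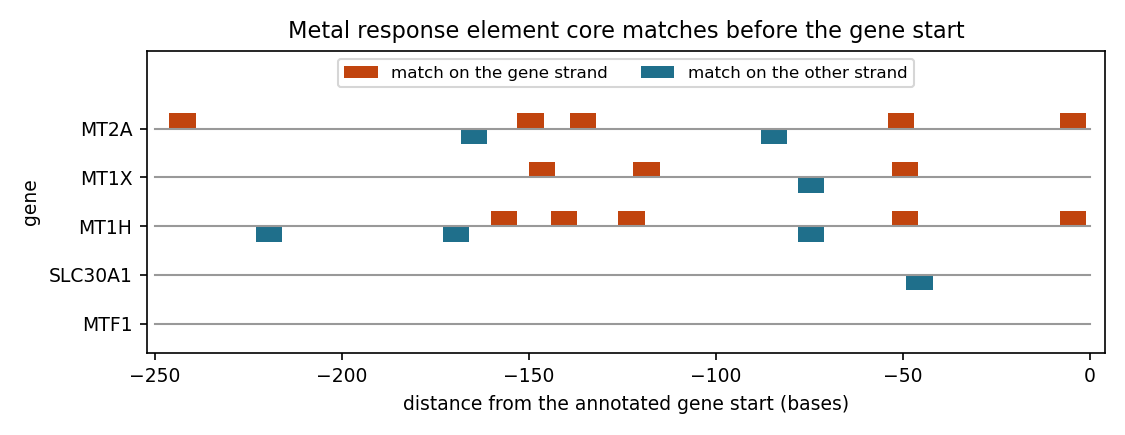
Places of metal response element core matches in the 250 bases before the annotated start of MT2A, MT1X, MT1H, SLC30A1 and MTF1. The x axis is the distance from the start in bases, and each block is 1 match, above the line for the gene's strand and below it for the other strand; the 3 metallothionein windows hold 7, 4 and 8 matches, SLC30A1 holds 1 and MTF1 none.

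Amino acid stress genes were higher on both deprived arrays. TRIB3, DDIT3, ASNS and CHAC1, which the transcription factor ATF4 switches on when amino acids run short, were between 1.29 and 3.80 higher in log2 signal after leucine removal and between 1.36 and 3.75 higher after lysine removal by their brightest probe sets, while the other probe set of TRIB3 gave 1.75 and 0.54. Of 12 listed markers of undifferentiated stem cells, 11 passed the level filter (a mean signal over the arrays at or above the median probe set), where 12944 of 19775 genes did. All 11 were above the floor (each array's 40th percentile) on every array, as were 11979 of the 12944 genes. LIN28A, an RNA-binding protein gene of stem cells, had signals of 43101 without leucine, 46553 without lysine and 36158 in complete medium. ZFP42 differed by -0.38 without leucine and 0.35 without lysine, SALL4 by -0.07 and -0.41, and GDF3, a TGF-beta family gene, by -0.62 and -1.45; the probe sets of ZFP42 differed in sign after lysine removal. Of 10 fibroblast or feeder cell markers, 5 passed the filter, where 12944 of 19775 genes did. COL1A1 had signals of 13187 without leucine, 18609 without lysine and 11552 in complete medium, and THY1 had 8348, 7503 and 12734.5 in the same order. The arrays do not show which cells gave these signals. The measured markers differed in direction: COL1A1 by 0.19 without leucine and 0.69 without lysine, TWIST1, a dim one, by 1.03 and 0.08, POSTN by 0.38 and 0.18, and THY1 by -0.61 and -0.76. The probe sets of COL1A1 and of THY1 differed in sign in both comparisons. The other 5, COL3A1, LUM, DCN, FAP and PDGFRB, were too dim to pass. In such bulk samples fewer cells of a type and less RNA per cell cannot be told apart. The 3′ to 5′ signal ratio of ACTB, a measure of RNA integrity and labelling, was 7.55 on the leucine-deprived, 11.2 on the lysine-deprived and 5.44 on the complete-medium array, and that of GAPDH was 1.23, 1.25 and 1.08. The part of these ratios in the differences below was not tested.

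All 8 metallothioneins had a higher signal on both deprived arrays than in complete medium. Signals are linear MAS5 intensities, which can be compared between arrays for one probe set but not between genes. A difference is given as log2 of the signal ratio, so that 1 stands for 2-fold. Each gene is represented by the brightest of its probe sets. With no replicates, the error at hand is how far probe sets of one gene disagree: the pooled SD of their differences, over 5981 genes, was 0.49 for leucine-deprived over complete medium, 0.57 for lysine-deprived over complete medium and 0.58 for leucine- over lysine-deprived.

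MT1M stood furthest from complete medium. Its signal was 4946 on the leucine-deprived array, 6597 on the lysine-deprived array and 1723 in complete medium. That is 2.87-fold higher without leucine (1.52) and 3.83-fold higher without lysine (1.94). Of all 12944 genes, those below the floor on an array included, 110 had a larger difference after leucine removal and 77 after lysine removal. MT1M is also the only metallothionein whose brightest probe set is not of the _x_at kind, a suffix by which the manufacturer marks probes that may also bind related transcripts. Of the 12 metallothionein probe sets 10 carry it. The genes are near-identical copies, so signal may be shared among them and the genes are not separate measurements.

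MT2A, the main metallothionein gene of many human tissues, had signals of 50231 without leucine, 58306 without lysine and 32051 in complete medium. Both deprived values lay above that of complete medium, by 0.65 and 0.86. MT1X had signals of 50867 without leucine, 54843 without lysine and 36263 in complete medium. Its differences of 0.49 and 0.60 were the smallest of the family after leucine removal and near the smallest after lysine removal, where MT1E had 0.59. A further MT1X probe set gave 0.41 and 0.53.

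MT1F had signals of 37901 without leucine, 44740 without lysine and 21071 in complete medium, which are differences of 0.85 and 1.09. Its other probe set gave 0.73 and 0.89, so the 2-fold mark after lysine removal was passed by 1 of its 2 probe sets. MT1H had signals of 42823 without leucine, 44529 without lysine and 26988 in complete medium, with differences of 0.67 and 0.72. The deprived arrays lay close together for MT1H, and both were above complete medium.

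MT1G had signals of 35783 without leucine, 35545 without lysine and 19169 in complete medium, with differences of 0.90 and 0.89. Its other probe set, not of the shared kind, was dim, at 145 without leucine, 104 without lysine and 92.9 in complete medium, and differed by 0.64 and 0.17. The MT1G probe sets thus agreed in direction but not in the size of the difference after lysine removal.

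MT1HL1, a metallothionein gene outside the cluster, had signals of 44677 without leucine, 66673 without lysine and 29807 in complete medium. Its difference was 0.58 without leucine and 1.16 without lysine, and the lysine-deprived array was the highest.

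The MT1E probe sets disagreed on the order of the deprived arrays. The brighter gave 54776 without leucine, 46129 without lysine and 30557 in complete medium, with differences of 0.84 and 0.59. The other gave 25025 without leucine, 33948 without lysine and 13338 in complete medium, with differences of 0.91 and 1.35. Both put the deprived arrays above complete medium, but in opposite order.

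**Figure D2:**
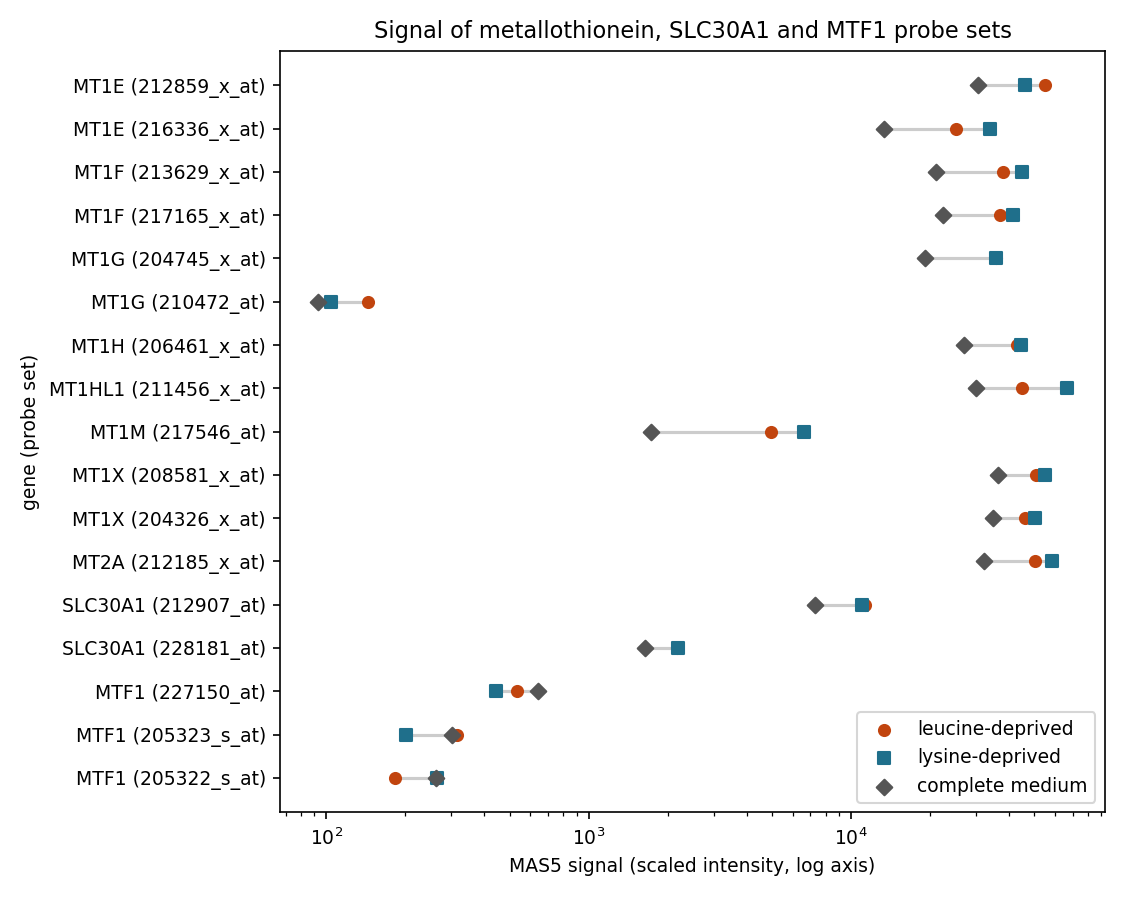
MAS5 signal, on a log axis, of the 17 probe sets of the 10 genes that passed the level filter, 1 row per probe set with its identifier. Circles are the leucine-deprived, squares the lysine-deprived and diamonds the complete-medium array; in all 12 metallothionein rows and both SLC30A1 rows complete medium is the lowest, and some symbols overlap.

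Taken as a family, the median difference was 0.75 after leucine removal (range 0.49 to 1.52) and 0.88 after lysine removal (range 0.59 to 1.94), beside medians over all genes of 0.02 and 0.01. Over the 12 metallothionein probe sets the medians were 0.70 and 0.88, and all 12 lay above complete medium in both comparisons, as did 51.7% of all genes after leucine removal and 50.8% after lysine removal. Both comparisons use the same complete-medium array, so they are not separate observations. After leucine removal 1 of 8 metallothioneins was at least 2-fold higher, where 2.67% of 12293 genes were (genes below the floor on either array are left out). After lysine removal 3 of 8 were, MT1M, MT1HL1 and MT1F, where 4.36% of 12267 genes were. At 1.5-fold the counts were 6 of 8 and 8 of 8, beside 9.32% and 13.4% of genes. MT1M decided the first count: without it none of the other 7 was 2-fold higher after leucine removal and 2 were after lysine removal, while the medians were 0.67 and 0.86.

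The share of genes past a given fold depends on brightness, and 7 metallothioneins, all but MT1M, were among 630 genes with a mean signal of at least 10000. In that range 2.7% of genes were at least 1.5-fold higher after leucine removal, 17 in all, and 5 of the 17 were metallothioneins. After lysine removal 4.92% of these genes were at least 1.5-fold higher, 31 in all, among them all 7 metallothioneins. The family was chosen for its high values and is counted in these shares and in the ranges below, so they describe it and test nothing. The middle 95% of these bright genes spanned -0.35 to 0.62 after leucine removal and -0.52 to 0.86 after lysine removal. MT1X (0.49) and MT1HL1 (0.58) lay inside the first range, and MT1X (0.60), MT1E (0.59) and MT1H (0.72) inside the second.

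**Figure D3:**
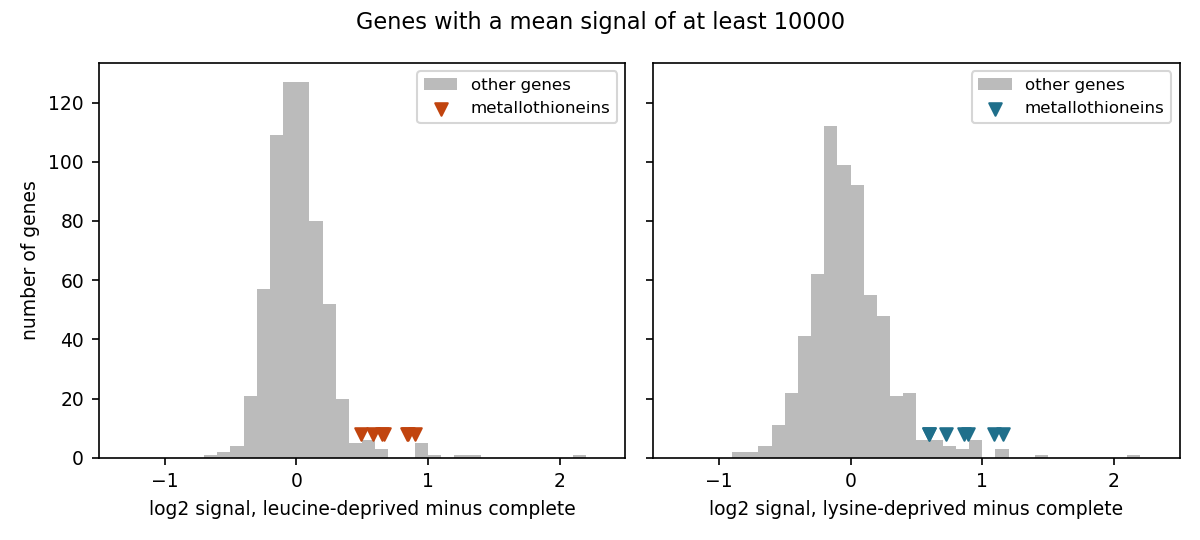
Histograms of the log2 difference from complete medium over genes with a mean signal of at least 10000, for leucine removal (left) and lysine removal (right); the y axis counts genes. Grey bars are other genes and triangles the 7 metallothioneins of this range, which lie between 0.49 and 0.90 after leucine removal and between 0.59 and 1.16 after lysine removal; the height of the triangles has no meaning.

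Between the deprivations the metallothioneins differed less. The median of leucine-deprived minus lysine-deprived was -0.16, with a range of -0.58 to 0.25, beside 0.01 over all genes. Of the 8 genes 6 were lower without leucine than without lysine, and MT1E (0.25) and MT1G (0.01) were higher, as were 51.8% of all genes. None was 1.5-fold apart in either direction, where 7.82% of genes were higher and 9.47% lower by that much. MT1HL1 (-0.58) and MT1M (-0.42) stood furthest below 0. The MT1E probe sets gave 0.25 and -0.44, and all of these values are within the 0.58 SD between probe sets of one gene. Among genes with a mean signal of at least 10000, the same middle share as above spanned -0.47 to 0.41 in this comparison. MT1HL1 (-0.58) lay below that range, and the other metallothioneins of this brightness lay inside it. The family is counted in this range too, so it tests nothing.

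SLC30A1, whose ZnT1 protein exports zinc across the plasma membrane, was higher on both deprived arrays. Its brightest probe set had signals of 11288 without leucine, 10967 without lysine and 7290 in complete medium, which are differences of 0.63 and 0.59. A second probe set had 2178 without leucine, 2187 without lysine and 1646 in complete medium, with differences of 0.40 and 0.41. The deprived arrays were nearly equal in both probe sets, and complete medium was lower in both. The remaining probe set was below the floor on every array, at 7.72, 3.92 and 6.84 (leucine-deprived, lysine-deprived and complete). Of all genes, those below the floor on an array included, 90.3% had a smaller difference than SLC30A1 after leucine removal and 84.9% after lysine removal.

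The MTF1 transcript was near or below its complete-medium signal on both deprived arrays. Its brightest probe set had signals of 533 without leucine, 442 without lysine and 643 in complete medium, with differences of -0.27 and -0.54. A second probe set had 314 without leucine, 201 without lysine and 301 in complete medium, with differences of 0.06 and -0.58. The last had 183 without leucine, 265 without lysine and 261 in complete medium, with differences of -0.51 and 0.02. No MTF1 probe set was more than 0.06 above complete medium, and the 3 probe sets did not agree on which deprived array was lower. MTF1 is activated by zinc at the protein level, which mRNA signals do not measure.

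**Figure D4:**
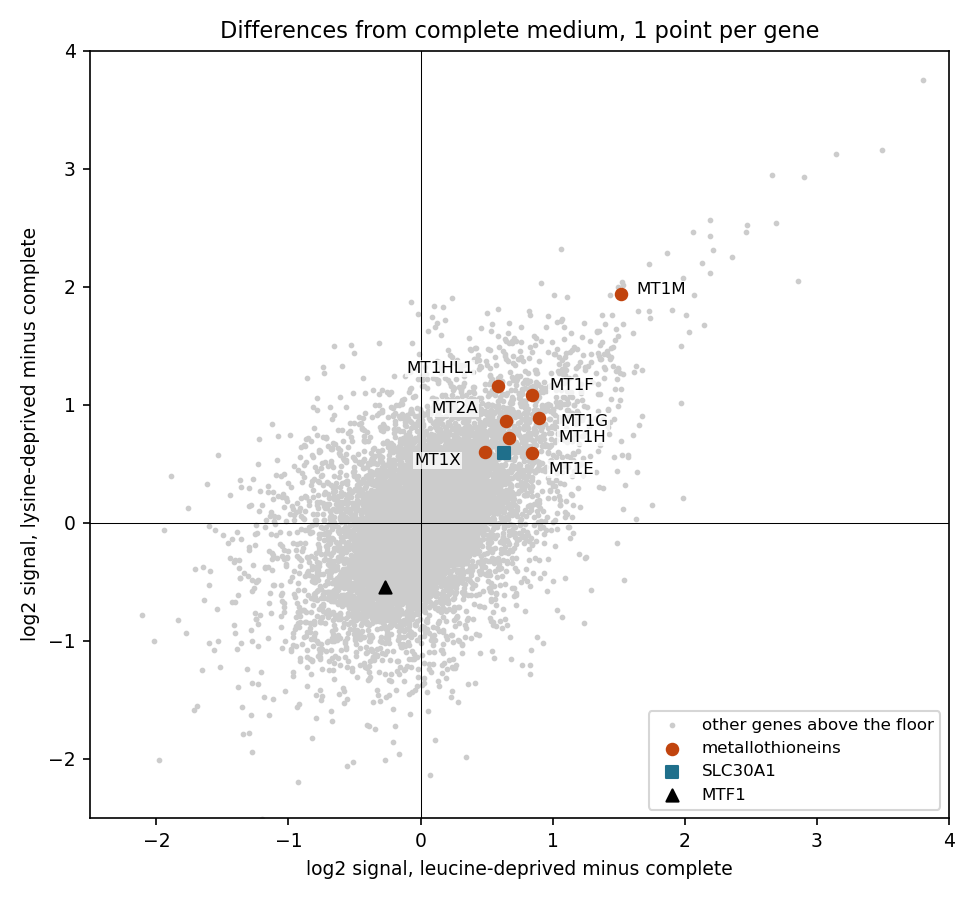
Log2 difference from complete medium after leucine removal (x axis) and after lysine removal (y axis) for 11979 genes above the floor on all arrays; 2 genes lie outside the axes. Both axes share the complete-medium array. The metallothioneins (circles) and SLC30A1 (square) lie above 0 on both axes, with MT1M furthest out at 1.52 and 1.94, and MTF1 (triangle) lies at -0.27 and -0.54.

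Zinc transporter genes other than SLC30A1 lay on both sides of complete medium. Of 10 SLC30 genes, SLC30A1 included, 9 passed the level filter, with medians of 0.12 after leucine removal and 0.44 after lysine removal. In each comparison 7 of the 9 lay above 0, beside 51.7% and 50.8% of all genes above the floor. After leucine removal these 7 include SLC30A10, which was below the floor on both arrays, so its 0.05 is only the ratio of the floors. SLC30A10 after lysine removal and SLC30A3 in both comparisons enter as bounds. SLC30A6 and SLC30A7, below 0 by their brightest probe sets, had others at up to 0.78 and 0.46 after leucine removal. After leucine removal none of the 9 was at least 2-fold higher, where 2.67% of all genes were. After lysine removal SLC30A2 was, where 4.36% of all genes were, and SLC30A10 and SLC30A3 were as bounds, which that share leaves out. SLC30A2, a vesicular zinc transporter, had signals of 493 without leucine, 585 without lysine and 286 in complete medium, with differences of 0.79 and 1.03. SLC30A9, a mitochondrial zinc exporter, differed by 0.12 without leucine and 0.44 without lysine, and SLC30A8, the zinc transporter of insulin granules, which was dim, by 0.47 and 0.31. SLC30A10 and SLC30A3, singled out after their values were seen, were below the floor in complete medium. SLC30A10 had a signal of 211 without lysine, at least 3.86-fold higher than complete medium, and was below the floor without leucine. SLC30A3 had 180 without lysine, at least 3.29-fold higher than complete medium, and 67.4 without leucine.

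Of 14 zinc importer genes of the SLC39 family 11 passed the filter, with medians of -0.10 after leucine removal and -0.03 after lysine removal. Of these 11, 4 and 5 lay above 0, near the 51.7% and 50.8% of all genes above the floor. By their brightest probe sets, none of the 11 was 2-fold higher or lower in either comparison. Of all genes, 1.5% were 2-fold lower after leucine removal and 2.04% after lysine removal, and 2.67% and 4.36% were 2-fold higher. The probe sets of SLC39A8 ranged from -1.21 to 0.81 after lysine removal, and another of SLC39A9 gave -1.05. SLC39A14, an importer of zinc and iron, was the furthest above complete medium, with signals of 7834 without leucine, 7548 without lysine and 4959 in complete medium (0.66 and 0.61). SLC39A10, which MTF1 represses in mouse and zebrafish, had signals of 4962 without leucine, 4550 without lysine and 6478 in complete medium (-0.38 and -0.51). SLC39A13 differed by -0.66 and -0.67, but another of its probe sets by 1.34 and 1.22. SLC39A4, the importer of intestinal zinc uptake, differed by -0.10 and -0.60.

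**Figure D5:**
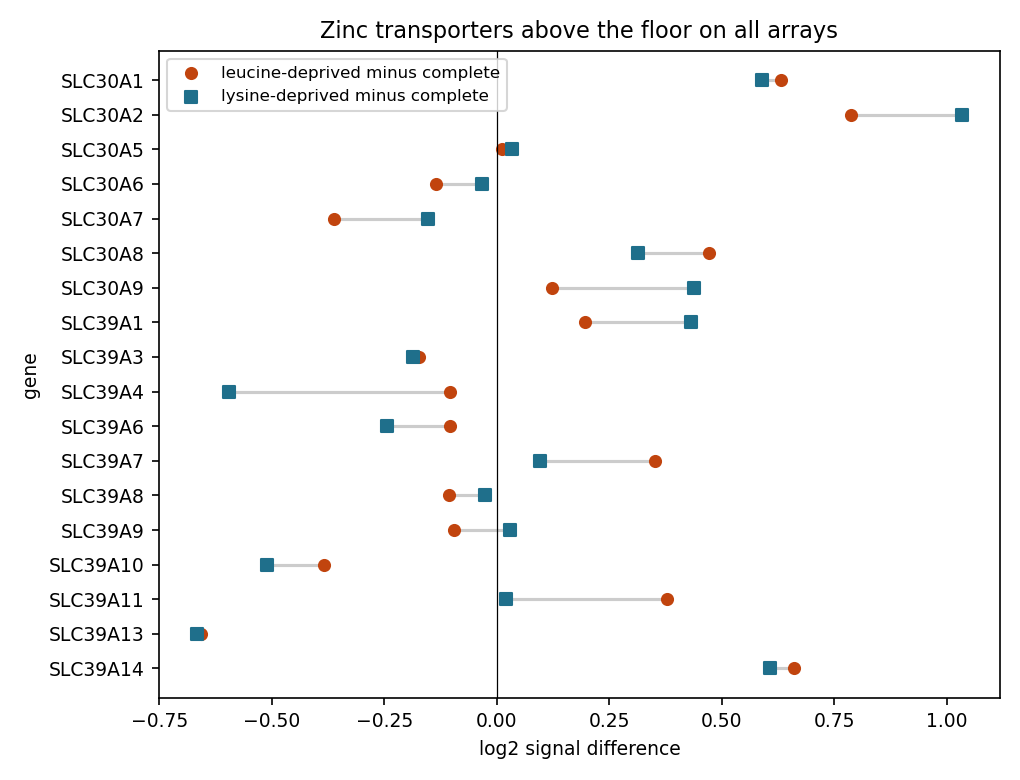
Log2 difference from complete medium after leucine removal (circles) and lysine removal (squares) for the 18 zinc transporter genes above the floor on all arrays, by the brightest probe set of each gene. SLC30A2, SLC30A1 and SLC39A14 lie furthest above 0 and SLC39A13 furthest below it in both comparisons.

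Other metallothionein genes gave little signal. MT3, the metallothionein of brain, had 30.1 without leucine and 5.37 without lysine, both below the floor, and 99.6 in complete medium. MT4, that of stratified epithelia, was below the floor on all arrays. Neither passed the level filter, and 9 further family genes on the list are not named alone by a probe set.

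Genes that answer the other known inducers of metallothioneins were mixed. Of 12 genes induced by heavy metals and oxidants 9 were measured, with medians of 0.15 after leucine removal and 0.12 after lysine removal; 2 were at least 2-fold higher without leucine, and without lysine 1 was higher and 1 lower by that much. Of all genes 2.67% were so much higher without leucine, and 4.36% higher and 2.04% lower without lysine. HMOX1, the haem-degrading enzyme, was 1.34 higher without leucine and 0.95 higher without lysine, and SLC7A11, the cystine carrier and an ATF4 target, 2.13 and 2.20 higher, although its lowest probe set gave 1.33 and 0.10. DNAJB1, a heat shock co-chaperone gene induced by cadmium, differed by -0.97 and -1.30, and TXNRD1, a thioredoxin reductase gene, by -0.37 and -0.56. By their brightest probe sets, the remaining 5 measured genes of the list lay between -0.03 and 0.32 in both comparisons. The probe sets of GCLM ranged from -0.55 to 0.30 after leucine removal and from -0.19 to 0.83 after lysine removal. Those of GCLC and NQO1 reached 0.49 after leucine removal. Of 11 glucocorticoid-induced genes 9 were measured, with medians of -0.12 after leucine removal and -0.03 after lysine removal and 1 at least 2-fold higher in each comparison, where 2.67% and 4.36% of all genes were. TSC22D3 was 2.46 and 2.47 higher, although its other probe set gave 1.15 and -0.05. SGK1, a kinase gene, differed by -0.43 and -0.77. KLF9 was level after leucine removal (0.00) and 0.79 higher after lysine removal, and CRISPLD2 was 0.49 and 0.73 higher; both were dim. Of 10 copper-handling genes 9 were measured, with medians of -0.14 after leucine removal and -0.08 after lysine removal. None was 2-fold apart in either direction, where 2.67% of all genes were higher and 1.5% lower without leucine, and 4.36% and 2.04% without lysine. The copper chaperone gene ATOX1 differed by -0.29 and -0.34, and SCO1, which brings copper to cytochrome oxidase, by -0.26 and -0.57. ATP7B, a copper exporter, differed by -0.14 and -0.59, and SLC31A2, a dim copper transporter gene, by 0.20 and 0.57.

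Other genes had differences like the metallothionein medians. Likeness was measured as the straight-line distance, in log2 units, between a gene's pair of differences from complete medium and the pair of metallothionein medians, over 6463 genes of at least median brightness. The nearest 5 genes, with their differences without leucine and without lysine, were SALL1 (0.75 and 0.85), LRATD2 (0.74 and 0.84), SNHG32 (0.73 and 0.92), JAG1 (0.81 and 0.89) and FAM221A (0.70 and 0.91). SALL1 is a zinc-finger transcription factor gene, JAG1 a Notch ligand gene and SNHG32 a snoRNA host gene. In all, 89 of the 6463 genes lay within 0.25 of the metallothionein medians. Other probe sets of LRATD2 and JAG1 went down to 0.16 and 0.18 after lysine removal. These distances rest on 2 differences that share the complete-medium array.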

How the data were processed

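Total RNA of khES3 cells (100 ng) was labelled with a 3′ in vitro transcription kit and hybridised to 1 array per medium, per the labels' protocols. The deposited values are linear intensities, 1 per probe set, which the authors made with MAS5, per the submitters' processing notes, with version and target not given in the sources used here. The mean of each array after trimming 2% at either end was 500.1, so a difference in total mRNA between arrays is removed. The number of arrays limits the precision.

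The floor under the intensities was each array's 40th percentile (56.8 leucine-deprived, 62.5 lysine-deprived, 54.7 complete) and floored values were taken to log2. Of 54675 probe sets, 41091 name 1 gene, 1801 several, 11721 none here and 62 are controls; no probe set names a member among several genes. Probe sets with a mean at or above the median of all were kept (23026, naming 12944 genes, with 17 of the 18 of the members), and a gene took its brightest one. A 2-fold difference was counted only above the floor on both arrays. No test between media was possible. The members and lists were chosen with earlier results of these data known, and the limit of 10000 for bright genes and both promoter motifs likewise. Named genes were all members, up to 4 per list, above the floor on all arrays, that differed most from complete medium on average, 4 check genes, and the 5 nearest genes; exceptions are marked. Alternatives were other floors, filters, normalizations, probe set choices and fold thresholds. The calculations were tested on simulated data. Platform symbols came from GEO's annotation, which is old; the Entrez identifiers of all 10 members matched RefSeq (GRCh38.p14). Values were computed in Python 3.11.15 with pandas 2.3.3 and numpy 2.4.6, and normalized alternatively in limma 3.58.1 under R 4.3.3.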

Additional observations from a re-analysis of the deposited data

Results flagged for a closer look

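MTF1 probe sets other than the brightest had differences of opposite sign on the deprived arrays, but the values above complete medium, 0.06 and 0.02, were near level. For the probe set with signals of 314 without leucine, 201 without lysine and 301 in complete medium, leucine-deprived minus lysine-deprived was 0.64. For the probe set with 183 without leucine, 265 without lysine and 261 in complete medium it was -0.53. The difference between the deprivations was not tested.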

How the results depend on the processing

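Under every alternative run the family medians were 0.62 to 1.08 after leucine removal, 0.63 to 1.05 after lysine removal and -0.25 to 0.03 between the deprivations. The last changed sign without probe sets marked as sharing probes. All moved by less than the SD between probe sets of one gene, but that SD, 0.49 to 0.58, is a wide limit beside medians of this size. Other floors and level filters could not move these medians, because the probe sets used lie far above them. All 8 metallothioneins and SLC30A1 stayed above complete medium, and the brightest or mean MTF1 value below it, in each of the alternatives that measured them. Median centring moved the median of all genes to -0.12 and -0.24 and put the metallothioneins 0.74 and 0.87 above it. It left 1 metallothionein 2-fold higher after lysine removal. Without probe sets marked as sharing probes only MT1M and MT1G were measured and 1 was 2-fold higher after lysine removal. At 1.5-fold 6 (leucine) and 8 (lysine) of 8 were higher, and at 3-fold 0 and 1. Without MT1M, an alternative added after seeing the data, 0 of 7 was 2-fold higher after leucine removal.

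The counts of all genes at least 2-fold higher were 328 after leucine removal, 535 after lysine removal and 246 for leucine- over lysine-deprived. They were 1146, 1648 and 960 at 1.5-fold and 43, 87 and 34 at 3-fold. A floor at the 20th percentile gave 549, 811 and 505, and one at the 60th 122, 210 and 77. A level filter at the 70th percentile gave 111, 197 and 90, and median centring 210, 265 and 370. Adding 32 with no floor gave 390 for the last. Of the genes 2-fold apart from complete medium, 63.9% were higher after leucine removal and 68.2% after lysine removal. With median centring these shares were 42.7% and 30.5%, and with quantile normalization the second was 56.7%. For leucine- over lysine-deprived the share was 40.5%, with 58.8% after median centring, 52.3% after quantile normalization and 54.5% with the level filter at the 70th percentile.

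No paired analysis was possible because each medium has 1 array. Dim probe sets, those of MTF1 and the second of MT1G among them, limit what can be read from single differences.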
